A study of Mus musculus with 8 samples.

Results

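The 10 genes described here encode transcription factors and other products of the immediate-early response. They are Fos, Fosb, Fosl1 and Fosl2 of the FOS family, Jun, Junb and Jund of the JUN family, Atf3, Egr1 and Ier3. Members were found by matching the accession of each probe to RefSeq gene symbols, with no use of signal, which gave 11 probes for 10 genes out of 39429 probes and 21612 named genes. Fosl2 had 2 probes and the other genes had 1 probe each. Expression was measured in AML12 cells, a mouse hepatocyte line established from the liver of mice carrying a TGF-α transgene. RNA came from 4 control samples and 4 samples given 0.5 µg/ml irisin, a peptide hormone cut from the membrane protein FNDC5, for 24 h. Both groups grew in the same medium with fetal bovine serum, itself a classical inducer of several of these genes, and each RNA was labelled with Cy3 and hybridized to 1 Agilent array. The labels number the replicates but do not say that they were separate cultures, so the p-values measure the spread between these 8 samples, which may be technical.

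Immediate-early genes are transcribed within minutes of a growth factor, cytokine or stress signal, without new protein synthesis, and their mRNAs are short-lived. FOS and JUN proteins pair through leucine zippers to form AP-1, which binds the DNA sequence TGANTCA, whereas ATF3 and related factors favour the cAMP response element TGACGTCA. Egr1 encodes a zinc finger factor that binds GC-rich sites such as GCGNGGGCG. In the liver these genes are known for their brief induction after partial hepatectomy and injury.

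The stretches below are shown because each holds letters of a motif, or of part of one, that proteins of these families are known to bind. RefSeq promoters of the build GRCm38.p6 covered 8 of the 10 genes, all but Fosl1 and Egr1, and the 250 bases before each start were searched. Capitals mark the letters of the matched motif.
Fos, 66 bases before the start, chr12:85473806-85473846, plus strand: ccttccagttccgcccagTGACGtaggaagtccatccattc
Fosb, 60 bases before the start, chr7:19310083-19310123, minus strand: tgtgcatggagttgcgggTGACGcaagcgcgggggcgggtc
Junb, 106 bases before the start, chr8:84978832-84978872, minus strand: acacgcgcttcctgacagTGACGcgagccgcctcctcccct
Atf3, 7 bases before the start, chr1:191183334-191183358, minus strand: aagctattaatagcattaCGTCAgc
Jun, 45 bases before the start, chr4:95052242-95052285, minus strand: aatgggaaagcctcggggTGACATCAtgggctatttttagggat
Fosl2, 79 bases before the start, chr5:32136375-32136419, plus strand: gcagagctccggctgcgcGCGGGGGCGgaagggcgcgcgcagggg

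The letters TGACG, which begin the cAMP response element, were found on either strand in 4 of the 8 promoters (Fos, Fosb, Junb and Atf3), compared with 17.8% of all 32851 promoters in the table. The Fos window held a further TGACG 129 bases before the start. The complete element TGACGTCA was in 0 of the 8 windows and in 1.55% of all promoters. The variant TGACATCA was found in Jun alone among the 8 and in 2.93% of all promoters. GCGNGGGCG was found in Fosl2 and Fosb and in 4.70% of all promoters, and in Fosb it lies 50 bases before the start, inside the tail of the stretch printed above. The AP-1 sequence TGANTCA (6.75% of all promoters) and the CArG box, the binding site of serum response factor (1.47%), had no match in the 8 windows, which says only that these letters are not in these 250 bases. All motifs were searched on both strands, TGACGTCA contains TGACG, and a match is a description of letters, not of binding.

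Every member was detected in both groups. All 11 probes were well above background on all 8 arrays and all entered the test. None was called in either direction at a change of at least 1.5-fold with an adjusted p under 0.05 (limma, Benjamini-Hochberg over all tested probes), whereas 12.4% of the 24092 tested probes were called, 0.714% higher and 11.7% lower with irisin. The methods' test also called none. Without the fold threshold, 2 probes passed, Fosb and the dimmer Fosl2 probe, both lower, against 21.6% of tested probes lower and 2.96% higher; the same 2 of 11 had an unadjusted p under 0.05, against 34.3% of tested probes. The changes, all given as irisin minus control on the log2 scale, were above 0 for 6 probes and below 0 for 5, with a median of 0.029, while the median over all tested probes was -0.080 and 34.8% lay above 0. For 8 probes the 95% interval of the change lay inside 1.5-fold in both directions, and for 3 (Fosb, the dimmer Fosl2 probe and Jun) it reached beyond. In extracts of whole cultures, fewer cells with a transcript and less of it in each cell cannot be told apart.

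**Figure D1:**
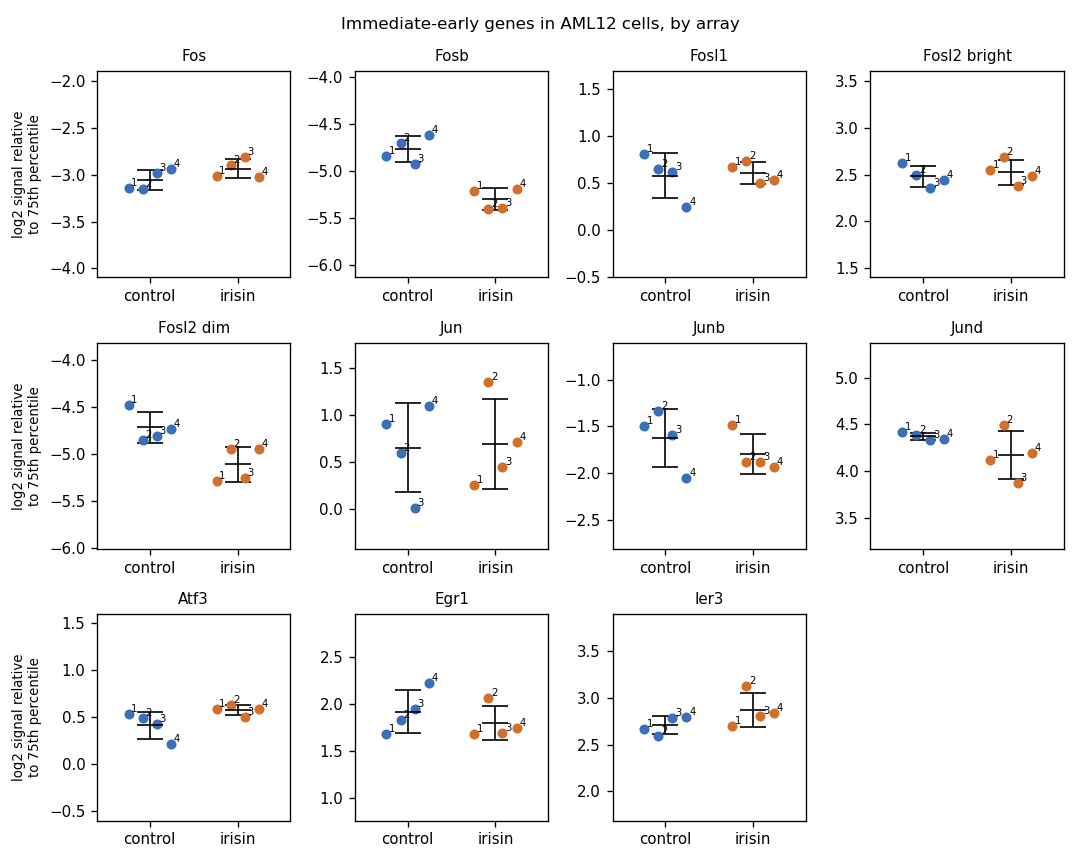
Log2 signal above or below the array's 75th percentile for each of the 11 probes, with 1 point per array numbered by replicate and bars showing the mean and SD of each group (n = 4). Every panel spans the same log2 range, and only Fosb and the dimmer Fosl2 probe have groups that do not overlap, while Jun has the widest scatter within both groups.

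Features of the arrays touch these values. All control arrays lay on one slide with its own scan and all irisin arrays on another, so slide and treatment cannot be told apart. The 75th percentile of the signal was 372 to 534 on the control arrays and 682 to 850 on the irisin arrays, a difference of 0.74 in mean log2, which the scaling removes. Between 59.5% and 64.1% of probes were well above background on an array, and no spot was saturated. When the tested probes were sorted by brightness into deciles, the median change was -0.51 in the dimmest decile, -0.33 in the next, 0.0021 in the fifth and -0.20 in the brightest.

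Fos, the founding member of its family and the gene most used as a marker of recent stimulation, was measured by 10 spots on each array, which gives the most direct view of measurement error. Its log2 signal, with the 75th percentile of each array set to 0, was -3.14, -3.15, -2.98 and -2.94 on the 4 control arrays and -3.01, -2.89, -2.81 and -3.03 on the 4 irisin arrays. The means were -3.05 ± 0.109 and -2.94 ± 0.101 (SD, n = 4), and the groups overlapped. The change was 0.12 (SE 0.089, 95% interval -0.081 to 0.31, limma adjusted p = 0.41), and the exact two-sided permutation test over the 70 assignments of the arrays gave p = 0.171. Across the spots of one array the coefficient of variation was 2.70% to 6.13%. Across the arrays of one group it was 7.56% in control and 7.07% in irisin after scaling, against 20.1% and 9.30% before it, so most of the spread between control arrays in the raw signal of Fos was removed by the scaling.

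Fosb, which encodes a close relative of FOS and a truncated splice form, gave the largest difference among the members. Control arrays gave -4.84, -4.70, -4.92 and -4.61, and irisin arrays gave -5.21, -5.40, -5.40 and -5.19. Each irisin value was below each control value, a pattern that 23.0% of all tested probes showed in the same direction and 4.18% in the other. Means were -4.77 ± 0.138 and -5.30 ± 0.115 (SD, n = 4), a change of -0.53 (SE 0.097, 95% interval -0.75 to -0.32) with a limma adjusted p of 0.0023, and the exact two-sided permutation p was 0.0286, the smallest that 4 against 4 arrays allow. The change stayed short of 1.5-fold. Fosb lay in the second dimmest decile of tested probes, where the median change was -0.33. With quantile normalization its change was -0.20 (limma adjusted p = 0.126) and with cyclic loess -0.16 (limma adjusted p = 0.206), so the result did not pass under normalizations that act on brightness. Normexp background correction, whose offset lowers dim probes on the brighter arrays by construction, gave -0.58 (limma adjusted p = 0.00012). With the arrays scaled before the offset, Fosb gave -0.14 (limma adjusted p = 0.0553).

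Fosl1, or FRA1, a FOS relative that lacks the carboxy-terminal activation domain and is itself an AP-1 target in many cells, showed no separation of the groups. Values were 0.80, 0.65, 0.62 and 0.24 in control and 0.67, 0.73, 0.49 and 0.53 with irisin. The irisin values all lay within the range of the control arrays. The change was 0.029 (SE 0.12, 95% interval -0.24 to 0.30, limma adjusted p = 0.904).

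Fosl2, or FRA2, was represented by 2 probes that disagreed. The brighter probe read 2.62, 2.50, 2.36 and 2.44 in control and 2.55, 2.69, 2.38 and 2.48 with irisin, a change of 0.046 (95% interval -0.16 to 0.26, limma adjusted p = 0.788). Its groups overlapped over nearly their whole range. The dimmer probe read -4.48, -4.85, -4.81 and -4.74 in control and -5.29, -4.94, -5.26 and -4.95 with irisin. These groups did not overlap, as for 23.0% of all tested probes in this direction. The change of the dimmer probe was -0.39 (SE 0.12, 95% interval -0.65 to -0.13, limma adjusted p = 0.0324, exact permutation p = 0.0286), beside a median of -0.33 over its decile of brightness. Without control replicate 1, control replicate 4, irisin replicate 1 or irisin replicate 3, the limma adjusted p was 0.0658 to 0.0942. With quantile normalization that change was -0.061 (limma adjusted p = 0.759) and with cyclic loess -0.041 (limma adjusted p = 0.836). Normexp background correction gave -0.53 (limma adjusted p = 0.0006), or -0.13 with the arrays scaled before the offset (limma adjusted p = 0.20). No direction can therefore be given for the gene as a whole.

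**Figure D2:**
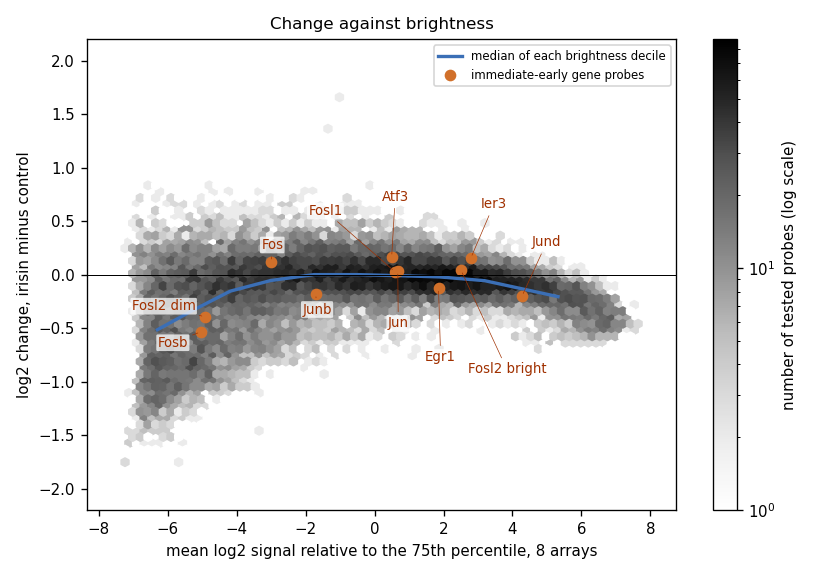
Log2 change (irisin minus control) of all 24092 tested probes against their mean log2 signal over the 8 arrays, shaded by the number of probes, with the 11 immediate-early gene probes as orange points and the median of each decile of brightness as a blue line. Fosb (-0.53) and the dimmer Fosl2 probe (-0.39) lie at the dim end, where the median is -0.33, and the other 9 probes lie near the flat part of the line or, for Jund (-0.20), at its bright end.

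Jun encodes the main partner of FOS in AP-1 and was the most variable member. Its values were 0.90, 0.60, 0.013 and 1.10 in control and 0.25, 1.36, 0.45 and 0.71 with irisin. The lowest and the highest array thus stood in different groups, and the spread within groups (SD 0.475 and 0.482) far exceeded the difference of the means. The pooled SD of 0.479 was higher than that of 98.3% of tested probes, whose median was 0.150. The change was 0.038 (SE 0.27, 95% interval -0.56 to 0.63, limma adjusted p = 0.945), so the interval runs from almost 1.5-fold lower to more than 1.5-fold higher. Without control replicate 3, or without irisin replicate 2, the change was -0.18, and both of these arrays set its sign.

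Junb, a JUN relative that restrains proliferation in many settings, read -1.50, -1.34, -1.59 and -2.05 in control and -1.48, -1.88, -1.88 and -1.93 with irisin. Irisin replicate 1 stood with the control arrays and control replicate 4 was the lowest of all 8. The change was -0.17 (SE 0.16, 95% interval -0.52 to 0.18, limma adjusted p = 0.496), and it was -0.32 without control replicate 4 and -0.080 without control replicate 2. Jund, the family member that many resting cells express steadily, read 4.42, 4.39, 4.34 and 4.34 in control and 4.12, 4.49, 3.87 and 4.20 with irisin. Its control arrays were tight (SD 0.0404) and its irisin arrays were not (SD 0.255). The change was -0.20 (SE 0.12, 95% interval -0.47 to 0.064, limma adjusted p = 0.277), equal to the median of -0.20 in the brightest decile of probes. It was -0.31 without irisin replicate 2 (limma adjusted p = 0.0314) and -0.10 without irisin replicate 3.

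Atf3, a stress-induced factor that can pair with JUN proteins, read 0.53, 0.49, 0.43 and 0.21 in control and 0.59, 0.63, 0.50 and 0.59 with irisin. All irisin arrays but replicate 3 were above every control array, and irisin replicate 3 was below the highest control. The change was 0.16 (SE 0.090, 95% interval -0.037 to 0.36, limma adjusted p = 0.24, exact permutation p = 0.0571), and without control replicate 4, the lowest array, it was 0.095.

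Egr1 read 1.68, 1.82, 1.94 and 2.22 in control and 1.68, 2.07, 1.69 and 1.74 with irisin. The lowest arrays of both groups were equal to 2 decimals, and irisin replicate 2 was apart from the other irisin arrays. The change was -0.12 (SE 0.13, 95% interval -0.41 to 0.17, limma adjusted p = 0.58), and it was -0.21 without irisin replicate 2 and -0.021 without control replicate 4. Before scaling, the Egr1 signal was 1192 to 2314 in control and 2555 to 2859 with irisin, with no overlap. The same held before scaling for 8 of the 11 probes, all but Fosb, Jun and Junb, and for 67.4% of all tested probes.

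Ier3, which encodes a small protein that modulates ERK signalling and survival, read 2.67, 2.60, 2.79 and 2.80 in control and 2.70, 3.13, 2.81 and 2.84 with irisin. Apart from irisin replicate 2 the arrays covered a narrow range. The change was 0.15 (SE 0.11, 95% interval -0.078 to 0.39, limma adjusted p = 0.348), and it was 0.068 without irisin replicate 2.

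**Figure D3:**
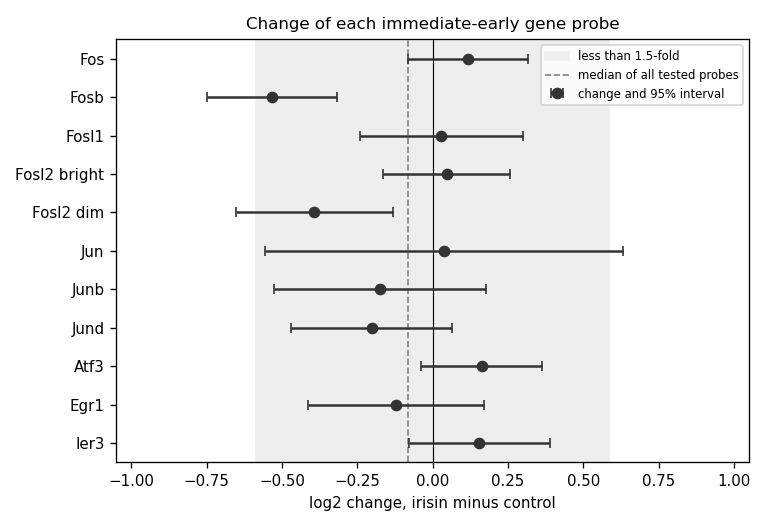
Log2 change (irisin minus control) of each probe with its 95% interval from limma, the grey band marking less than 1.5-fold and the dashed line the median of all tested probes (-0.080). The interval of 8 probes lies inside the band, those of Fosb, the dimmer Fosl2 probe and Jun reach beyond it, and only those of Fosb and the dimmer Fosl2 probe leave out 0.

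The order of the arrays within a group differed among the members. Irisin replicate 2 was the highest irisin array for 8 of the 11 probes, and for 47.4% of all tested probes. Jun, Egr1 and Ier3 had their highest control value on replicate 4 and their highest irisin value on replicate 2, a combination seen in 14.6% of all tested probes. Control replicate 4 was the highest control array for 5 probes (Fos, Fosb, Jun, Egr1 and Ier3) and the lowest for 3 (Fosl1, Junb and Atf3), against 27.4% and 21.7% of all tested probes.

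How the arrays were put on one scale decided the sign of several members. Scaling to the 8 spike-in probes moved the median change of all tested probes to 0.50, and leaving the arrays unscaled moved it to 0.66. On these scales 6 and 7 member probes were called higher, namely Fos, Fosl1, the brighter Fosl2 probe, Jun, Atf3 and Ier3, with Egr1 added when unscaled. Of the 24092 tested probes, 7817 were called higher with spike-in scaling and 14920 without scaling. Both scalings shift all probes of an array alike, so the distance of a member from the median of all probes is fixed by construction, at 0.24 for Atf3, 0.20 for Fos and -0.45 for Fosb. Under quantile normalization and cyclic loess, which can move it, that distance was -0.21 and -0.19 for Fosb. The changes themselves were 0.22 and 0.24 for Fos, 0.16 and 0.17 for Atf3, and 0.17 and 0.23 for Ier3 under these 2 normalizations, none of them called.

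**Figure D4:**
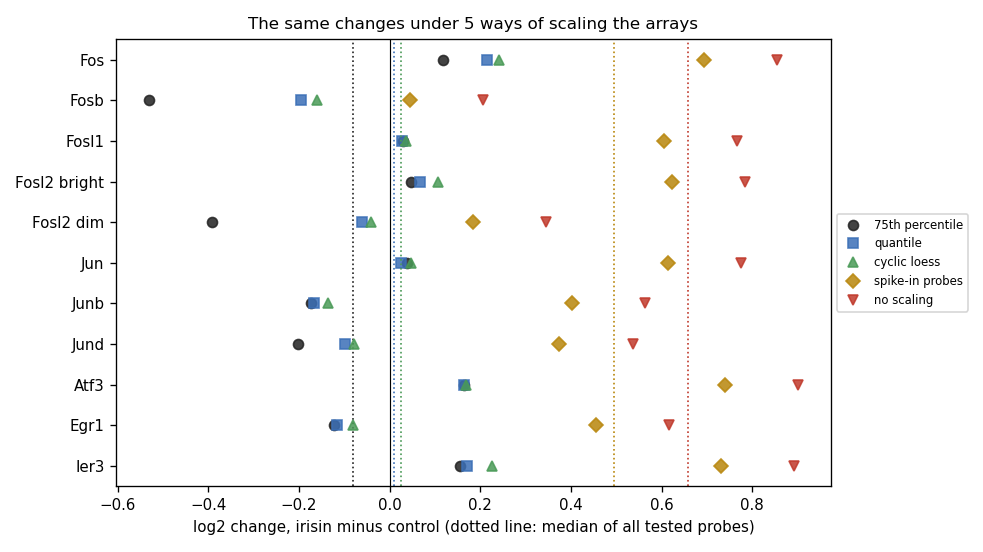
Log2 change (irisin minus control) of each probe under 5 ways of scaling the arrays, with dotted lines at the median of all tested probes under each. Spike-in scaling and no scaling move all 11 probes up together with the median of all probes (0.50 and 0.66), and under quantile normalization and cyclic loess Fosb lies at -0.20 and -0.16 instead of -0.53.

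The surrounding pathway was described with 8 lists holding 136 genes, of which 122 were tested, each gene by its brightest tested probe. Of the 122, 3 were called higher and 2 lower, and 54 had a change above 0, with a median of -0.020. Over all 14311 tested genes, 0.531% were called higher and 10.2% lower, with a median of -0.064.

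Among regulators that switch immediate-early promoters on, 1 of 12 tested genes was called, against 10.7% of all tested genes in either direction. Elk4, a ternary complex factor that binds with serum response factor at CArG boxes, fell from -1.17, -1.08, -1.11 and -0.97 in control to -2.22, -1.70, -2.52 and -1.99 with irisin. The 2 groups did not overlap, as was so in this direction for 23.0% of all tested probes. The change was -1.03 (SE 0.15, limma adjusted p = 0.000691). A second Elk4 probe gave -0.88 (limma adjusted p = 0.00781) and was also called, whereas the remaining probe gave -0.12 (limma adjusted p = 0.607), so the probes disagree. The brightest Elk4 probe was not called with spike-in scaling (-0.45) or without scaling (-0.29), where it lay below a median that had itself moved up. Its relatives gave -0.43 for Elk1 (limma adjusted p = 0.00456) and -0.059 for Elk3 (limma adjusted p = 0.702). Elk1 lay in the brightest decile of tested probes, where the median change was -0.20. Serum response factor itself, Srf, gave -0.18 (limma adjusted p = 0.231), its coactivator Mrtfa -0.32 (limma adjusted p = 0.0164) and Creb1, which acts at the cAMP response element, 0.12 (limma adjusted p = 0.44).

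Among MAP kinases and their activators, 1 of 17 tested genes was called, against 10.7% of all tested genes in either direction. Map2k7, a kinase that activates JNK, the kinase of JUN, fell by 0.66 (SE 0.10, limma adjusted p = 0.000841). Its control arrays read -5.39, -5.26, -5.30 and -5.31 and its irisin arrays -5.77, -6.13, -6.14 and -5.86, so that it is a dim probe like Fosb. With quantile normalization the change was -0.24, with cyclic loess -0.22, with spike-in scaling -0.084 and without scaling 0.078, and under none of these was it called. Normexp background correction, whose offset lowers dim probes on the brighter arrays by construction, gave a call (-0.64). With the arrays scaled before the offset, Map2k7 gave -0.17 and was not called. Map2k4, the other JNK activator, gave -0.22 (limma adjusted p = 0.0762), Mapk8, which encodes JNK1, gave 0.27 (limma adjusted p = 0.129), and Mapk3, which encodes ERK1, gave -0.062.

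The remaining bZIP genes and the EGR family held no call, against 10.7% of all tested genes called by limma in either direction. Of 12 tested AP-1 partners, 0 were called by limma or by the methods' test, and 3 had an unadjusted p under 0.05, all lower, against 29.5% of the 14311 tested genes in either direction. Mafa (-0.29) and Batf3 (-0.30) were the 2 with an adjusted p under 0.05. In the EGR and NAB list, 3 of 6 genes were tested, 0 were called by either test, and 0 had an unadjusted p under 0.05. Egr2 gave 0.11 and Nab2, a corepressor that EGR1 induces, gave -0.015. Among 11 ligases, kinases and other proteins that act on JUN and FOS, 0 were called by either test and 0 had an unadjusted p under 0.05.

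Of 39 tested immediate-early genes outside the 10, 2 were called higher and 0 lower, against 0.531% and 10.2% of all 14311 tested genes. Myc, which encodes the growth regulator MYC, rose by 0.63 (limma adjusted p = 0.000362), from 2.45, 2.38, 2.45 and 2.65 in control to 3.10, 3.10, 3.16 and 3.11 with irisin. Cxcl2, a neutrophil chemokine, rose by 0.79 (limma adjusted p = 0.00264), from -4.62, -4.46, -4.58 and -4.52 to -3.31, -4.03, -3.67 and -4.01, but it is dim, and with normexp background correction it gave -0.12, or 0.22 with the arrays scaled before the offset, and was not called. Cxcl2 was called higher with quantile normalization (1.02) and cyclic loess (1.04). It was also called with spike-in scaling (1.37) and without scaling (1.53), where the median of all probes had itself moved up. Other classical members of the response were not called. Dusp1, a MAP kinase phosphatase, gave 0.041 (limma adjusted p = 0.778), Ier2 -0.13 (limma adjusted p = 0.629), Nr4a1, an orphan nuclear receptor, 0.057 (limma adjusted p = 0.67) and Zfp36, which destabilizes mRNAs, -0.23 (limma adjusted p = 0.079). The widest uncalled change was that of Ptgs2 (0.61, limma adjusted p = 0.0763), with means of -7.22 in control and -6.62 with irisin. It was well above background on 4 of the 8 arrays, so the filter admitted it through a single group. Its change is therefore no support for a difference.

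Genes known as AP-1 targets held no call among 18 tested by limma or by the methods' test, and 2 had an unadjusted p under 0.05 on the higher side and 3 on the lower. Over all 14311 tested genes, limma called 10.7% and 29.5% had an unadjusted p under 0.05, in either direction. Mt1 and Mt2, metal-binding metallothioneins, gave -0.47 (limma adjusted p = 0.00179) and -0.30 (limma adjusted p = 0.0495). Both lay in the brightest decile of tested probes, where the median change was -0.20. Hmox1, heme oxygenase, gave 0.67 with an SD of 0.790 among irisin arrays and was not called (limma adjusted p = 0.166). Ccnd1 (-0.044), a cyclin, and Plau (0.021), a plasminogen activator, were not called. Of 14 tested EGR1 targets, 1 was called, against the same 10.7% of all tested genes. Trp53, which encodes p53, rose by 0.68 (SE 0.16, limma adjusted p = 0.00915), from -1.10, -1.04, -0.95 and -0.64 to -0.71, -0.048, -0.048 and -0.21, with irisin replicate 1 below control replicate 4, an exact permutation p of 0.0571 and no call by the methods' test.

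**Figure D5:**
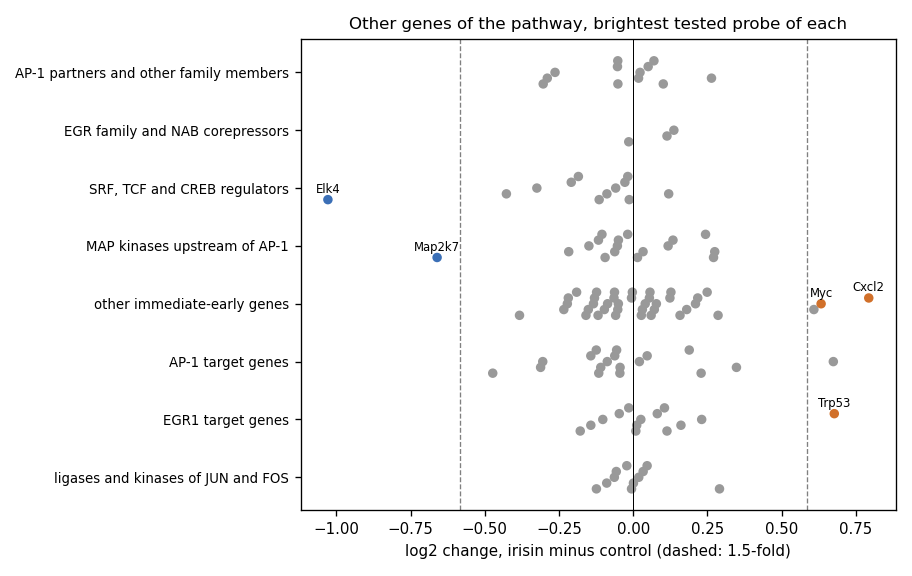
Log2 change (irisin minus control) of every tested gene of the 8 pathway lists, each gene by its brightest tested probe, with called genes marked by name. The called genes are Elk4 (-1.03) and Map2k7 (-0.66) on the lower side and Cxcl2 (0.79), Trp53 (0.68) and Myc (0.63) on the higher side, and the medians of the lists lie between -0.10 and 0.11.

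The hepatocyte label was checked with 14 marker genes, all of which every array showed well above background, with 0 called and a median of -0.072. Trf and Krt18 had a limma adjusted p under 0.05, at -0.39 and -0.47, and both lay in the brightest decile, where the median change was -0.20. The signal of all 14 hepatocyte markers, summed relative to the 75th percentile, was 486 to 536 in control and 397 to 470 with irisin. Of 5 cholangiocyte markers, 4 were tested and 0 called, with sums of 55.3 to 61.8 in control and 57.9 to 60.9 with irisin, which overlap. Of 9 stellate cell and fibroblast markers, 3 were tested and 2 were called lower (Col1a2 and Acta2), while Col1a1 gave 0.0064. Their summed levels were 0.0950 to 0.142 in control and 0.0610 to 0.0819 with irisin. Of 7 endothelial markers, 2 were tested and Pecam1 was called lower, with sums of 0.693 to 0.777 and 0.405 to 0.573. Kdr gave -0.56 (limma adjusted p = 0.0044) and was not called. The called markers were dim, with control means of -4.08 (Col1a2), -5.21 (Acta2) and -4.46 (Pecam1). Over all 14311 tested genes 10.2% were called lower, and 19.6% to 45.1% of probes in each of the 3 dimmest deciles. Of 8 macrophage and leukocyte markers, 4 were tested and 0 called, with sums of 14.7 to 16.5 and 12.7 to 14.4. Csf1r gave -0.49 (limma adjusted p = 0.0014) and Itgam -0.43 (limma adjusted p = 0.039), while Cd14 gave -0.12 and Cd68 0.0062. The defining markers Ptprc, Adgre1 and Clec4f did not enter the test, nor did Lyz2. By adjusted p alone, 21.6% of all tested probes were lower. The part of these markers in the immediate-early values was not tested.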

How the data were processed

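AML12 RNA was labelled with Cy3 and hybridized to Agilent one-color arrays, and the authors deposited Feature Extraction 12.0.3.1 output as signal intensity on a linear scale, already background-subtracted and not scaled between arrays. A deposited value table held the mean processed signal intensity of each probe's spots. Marked spots were left out (at most 0.463% of 43020 per array), spots of a probe were averaged, and log2 of the signal was taken minus the 75th percentile of its array. Accessions were matched to RefSeq symbols of GRCm38.p6 for 28663 probes (72.7%), and positions in the files, on mm9, were not used. limma 3.58.1 (lmFit, eBayes, R 4.3.3) was run on the 24092 probes that every array of either group, or of both, showed well above background. Calls needed a change of at least 1.5-fold and an adjusted p under 0.05. Single probes were also tested by exact permutation, two-sided, over the 70 possible assignments. The analysis of variance of the study's methods, with the same thresholds, is called the methods' test.

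The scripts were tested on simulated data. The 10 genes, the pathway lists, the markers and the tests were chosen with earlier results of these data known, and the lists were written from general knowledge. All probes of the 10 genes were named, with the called genes of each list (at most 4), the 5 genes most like the member of largest change, and other genes of the lists chosen after their values were seen. Alternatives covered background correction, scaling, filters, thresholds, a replicate block and leaving out each array. The number of arrays limits the precision. Values of some list genes are not reported here.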

Additional observations from a re-analysis of the deposited data

Results flagged for a closer look

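Dixon's test was applied to 32 groups of 4 arrays, and 2 of them, both among the 10 genes, held an array far from the other 3. Chance gives about 1 in 20 groups. Junb read -1.48 in irisin replicate 1, against -1.93 to -1.88 on the other irisin arrays. Egr1 read 2.07 in irisin replicate 2, against 1.68 to 1.74 on the others. Without irisin replicate 1 the change of Junb was -0.28, and without irisin replicate 2 that of Egr1 was -0.21, and neither was called.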

How the results depend on the processing

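The count of 0 called probes among the 10 genes was the same in 21 alternatives. It was 6 with spike-in scaling, 7 without scaling and 2 with adjusted p alone. Of the 24092 tested probes, 7817 were called higher with spike-in scaling and 14920 without scaling. With adjusted p alone, 713 were called higher and 5196 lower. The median change of 0.029 became 0.60 with spike-in scaling and 0.77 without scaling. Both shift all probes of an array alike, and the median of all tested probes became 0.50 and 0.66. With spike-in scaling the sign turned for Fosb (0.044), the dimmer Fosl2 probe (0.18), Junb (0.40), Jund (0.37) and Egr1 (0.45), and without scaling for the same probes (0.21, 0.35, 0.56, 0.54 and 0.62). With normexp the sign turned for Fos (-0.19) and Egr1 (0.0058), and with the arrays scaled before the offset, chosen after seeing the data, Fos gave 0.035. The offset of 50, added before scaling, lowers dim probes on the brighter arrays by construction. Spots more than 20 below local background, at most 8 per array, were left out of the normexp fit.

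Leaving out 1 array gave -0.18 to 0.19 for Jun, -0.084 to 0.10 for Fosl1 and -0.0089 to 0.097 for the brighter Fosl2 probe, and kept the sign of the other 8 probes.

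In the pathway lists, the 3 of 122 tested genes called higher became 52 with spike-in scaling and 102 without scaling. Of all 24092 tested probes, 7817 and 14920 were called higher on these scales. The 3 genes became 0 at 2-fold and 3 to 5 with 1 array left out (5 without irisin replicate 2). The 2 called lower became 1 with quantile normalization, cyclic loess, normexp scaled before the offset or a 2-fold threshold, 0 with spike-in scaling or without scaling, 11 without the filter on dim probes and 9 with adjusted p alone. Over all probes, 172 higher and 2815 lower calls became 670 and 1021 after quantile normalization, 699 and 926 after cyclic loess, 54 and 3412 with normexp, 55 and 96 with normexp scaled before the offset, 7817 and 362 with spike-in scaling, 14920 and 162 without scaling, 184 and 12750 without the filter, and 335 and 3051 without irisin replicate 2.

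Same-numbered arrays correlated at 0.109, -0.348, -0.125 and 0.165 in their deviations from the group means. Control replicates 1 and 4 correlated best with the irisin array of their own number, and replicates 2 and 3 with that of another. These values cannot settle whether the numbers pair the samples. With a replicate block 0 member probes were called, and 173 higher and 2831 lower over all probes.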

Other observations

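The 5 genes whose centred log2 signals over the 8 arrays lay nearest to those of Fosb, among 18025 probes with a gene symbol and well above background on every array, were Zmynd10 (root mean square difference 0.0475), Ehbp1 (0.0536), Tm4sf5 (0.0702), Tmem87a (0.0705) and Prss8 (0.0796). Their changes ran from -0.63 for Tmem87a to -0.49 for Prss8, beside -0.53 for Fosb. They were picked for likeness to Fosb, so these changes are a description.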
